A study of Mus musculus with 6 samples.

Results

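The genes described here encode the proteins of the cornified envelope and the enzymes that join them. They were every gene on the array named as a small proline-rich protein (SPRR) or a late cornified envelope protein (LCE), together with loricrin (Lor), involucrin (Ivl), the filaggrins (Flg, Flg2), the transglutaminases (Tgm), envoplakin (Evpl) and periplakin (Ppl). The genes were picked by name, in a set proposed with earlier results of these data known. The names gave 45 genes of the 23853 named on the array, read by 54 probes of 60 bases each. Of these, 32 were well above background on at least 1 of 6 arrays, as were 17552 of all named genes.

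RNA came from mouse embryonic fibroblasts (MEFs) of ICR strain, measured on single-colour Agilent arrays with 1 array per group. The groups, all grown in medium with serum, were Per2m/m cells given the vector for H-Ras and SV40T, mock Per2m/m cells, Clk/Clk cells given that vector, mock Clk/Clk cells, wild type (WT) cells given that vector, and mock WT cells. Per2 and Clock, the gene altered in Clk/Clk, belong to the circadian clock, H-Ras is an oncogenic GTPase, and SV40T is a viral protein that inactivates p53 and RB. The labels do not state the allele, the number of embryos or the passage. For the transfected Per2m/m cells the source name does not mention SV40, so the agent given to those cells is less certain than in the other transfected groups. No group had a repeat, so a difference between 2 arrays has no test, and differences between cultures, whatever made them, cannot be told apart from the effect of genotype or vector.

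The cornified envelope is a shell of cross-linked protein that replaces the plasma membrane of keratinocytes in the outermost epidermis. Envoplakin, periplakin and involucrin are laid down first as a scaffold, loricrin and the SPRR proteins are then joined to it, and LCE proteins are added late, with transglutaminases forming the bonds. Most of the genes for the structural proteins lie side by side in the epidermal differentiation complex. Fibroblasts are not known for making this structure.

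A level below is the log2 of the processed signal relative to the 75th percentile of its array. Levels of a gene are compared between arrays and not with those of other genes, because each probe has its own response. "Dim" marks a level whose probe was not well above background on that array. A response is the level in transfected cells minus that in mock cells of the same genotype. A gene was counted as higher or lower at 2-fold or more, with the brighter array well above background, and where the other array was dim the change is a lower bound, written as at least so many fold. Repeated spots of a probe gave a spread of 0.086 for a log2 ratio of 2 arrays, which covers spot noise only.

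The arrays stood on 1 slide, and 49.3% to 57.3% of their spots were well above background. The lowest share was that of transfected Per2m/m cells, whose array stood apart, with a correlation of 0.855 to 0.893 with the others, whose median correlations were 0.931 to 0.945. Xist and the Y-linked Ddx3y and Eif2s3y were well above background in mock Per2m/m cells and dim in transfected Per2m/m cells. Xist was also dim on both Clk/Clk arrays, at −6.63 and −6.79 in transfected and mock cells. On the WT arrays it was well above background, at −0.95 and −1.03. Ddx3y, Eif2s3y and Uty were well above background on all Clk/Clk and WT arrays, and Uty was dim on both Per2m/m arrays. The part of this in the differences between genotypes and in the Per2m/m responses was not tested. Each Per2m/m response below rests on the array of transfected Per2m/m cells, while the WT and Clk/Clk responses do not use it. Fibroblast markers were well above background for 9 or 10 of 10 genes on each array. In Per2m/m cells 6 of the 10 were lower and 0 higher after transfection, with Thy1 at −7.76, Col3a1 at −3.59 and Fbn1 at −2.67 (log2) and a median response of −1.39. Lum, counted among the 6, had a bound of at least 1.40-fold, short of 2-fold. In Clk/Clk cells 1 was lower and 1 higher, and in WT cells 4 were lower and 1 higher, with Thy1 at −3.34 and Lum at least 22.7-fold lower. Of 8 markers of suprabasal keratinocytes, the cells that build the envelope, Krt1, Krtdap, Dsg1a, Dsc1 and Calml3 were dim on every array. Krt2 and Casp14 were well above background on every array, and Krt10 on all but that of transfected Per2m/m cells.

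On chromosome 3 lay 36 of the 45 genes, within 1199.5 kb (chr3:91884206-93083753, mm9, by the probe positions in the files), and 23 of the 32 that were detected. Detection differed by family. It reached 10 of 13 LCE1 genes, 3 of 4 LCE3 genes, 7 of 15 SPRR genes, 3 of the 4 genes for loricrin, involucrin and filaggrins, all 7 transglutaminases and both plakins. The 13 genes that were dim on every array were Flg2, Lce1a1, Lce1b, Lce1d, Lce3c, Sprr1b, Sprr2a1, Sprr2b, Sprr2d, Sprr2e, Sprr2f, Sprr2i and the pseudogene Sprr2j-ps. The highest level among them was −4.69, for Sprr2j-ps, while Flg, just inside the detection rule, was well above background on 1 array at −5.07. By array, 8 of the genes were well above background in transfected Per2m/m cells and 18 in mock Per2m/m cells, 18 each in transfected and mock Clk/Clk cells, and 20 in transfected WT cells, against 24 in mock WT cells.

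Members of these families are near copies of each other, so the probes were compared first. The probes of Lce1h (chr3:92567272-92567331, minus strand) and Lce1i (chr3:92581269-92581328, minus strand, both mm9) differed at 4 of 60 bases, with a longest shared run of 29 bases. The first 30 bases of each are shown because a signal at one may come in part from the other gene, with the differing bases in capitals.
Lce1h: aagacttcaAacaaatGgtgcaggaggagc
Lce1i: aagacttcaGacaaatAgtgcaggaggagc
The probes of Lce3b and Lce3c differed at 6 of 60 bases. The brighter Lce1c probe is listed in the files under accessions of Lce1c, Lce1e and Lce1f, and the brighter Lce1a2 probe under those of Lce1a2 and Lce1a1. Values for Lce1c, Lce1a2 and Lce1h, and those of this Lce1i probe, are therefore uncertain as to which copy gave them. The Lce1i levels below come from another, brighter probe, which is listed under Lce1i alone and shared no run of 20 bases with a probe of another gene. Probes were compared only with other probes on the array and not with transcripts. Whether the remaining LCE1 probes, among them those of Lce1e, Lce1f and Lce1g, also read other copies was therefore not tested.

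The brightest Sprr2a2 probe (chr3:92060587-92060646, plus strand, mm9) shared runs of 20 bases or more with 6 probes designed for other transcripts, which were themselves well above background on all 6 arrays. Its first 30 bases are shown because this whole stretch recurs in one of those probes, on chromosome 4, and the capitals mark the shared bases.
Sprr2a2: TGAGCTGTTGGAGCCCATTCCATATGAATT
This probe read 8.89 in transfected and 8.35 in mock Per2m/m cells, 8.49 and 8.77 in transfected and mock Clk/Clk cells, and 8.42 and 8.18 in transfected and mock WT cells. Both other Sprr2a2 probes were dim on nearly every array, the exception being 1 of them in mock Per2m/m cells, at −4.03. The bright, even signal is therefore reported as that of the probe and not of Sprr2a2. In the counts and medians over the detected genes, however, this probe still stands for Sprr2a2.

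The main pattern was in the LCE1 genes, which encode small cysteine-, glycine- and serine-rich proteins of the late envelope. Lce1c, Lce1e, Lce1f, Lce1g, Lce1h, Lce1i and Lce1l were all lower in transfected than in mock cells of both Per2m/m and WT genotype. As set out above, the probes of Lce1c and Lce1h may also read other copies. In Per2m/m cells the differences were at least 4.75-fold to at least 529.8-fold, and every one of the 7 was dim after transfection. In WT cells they were 8.49- to 14.2-fold where measured on both arrays. In Clk/Clk cells none of the 7 changed by more than 3.36-fold where both arrays measured it, and the directions were mixed.

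**Figure D1:**
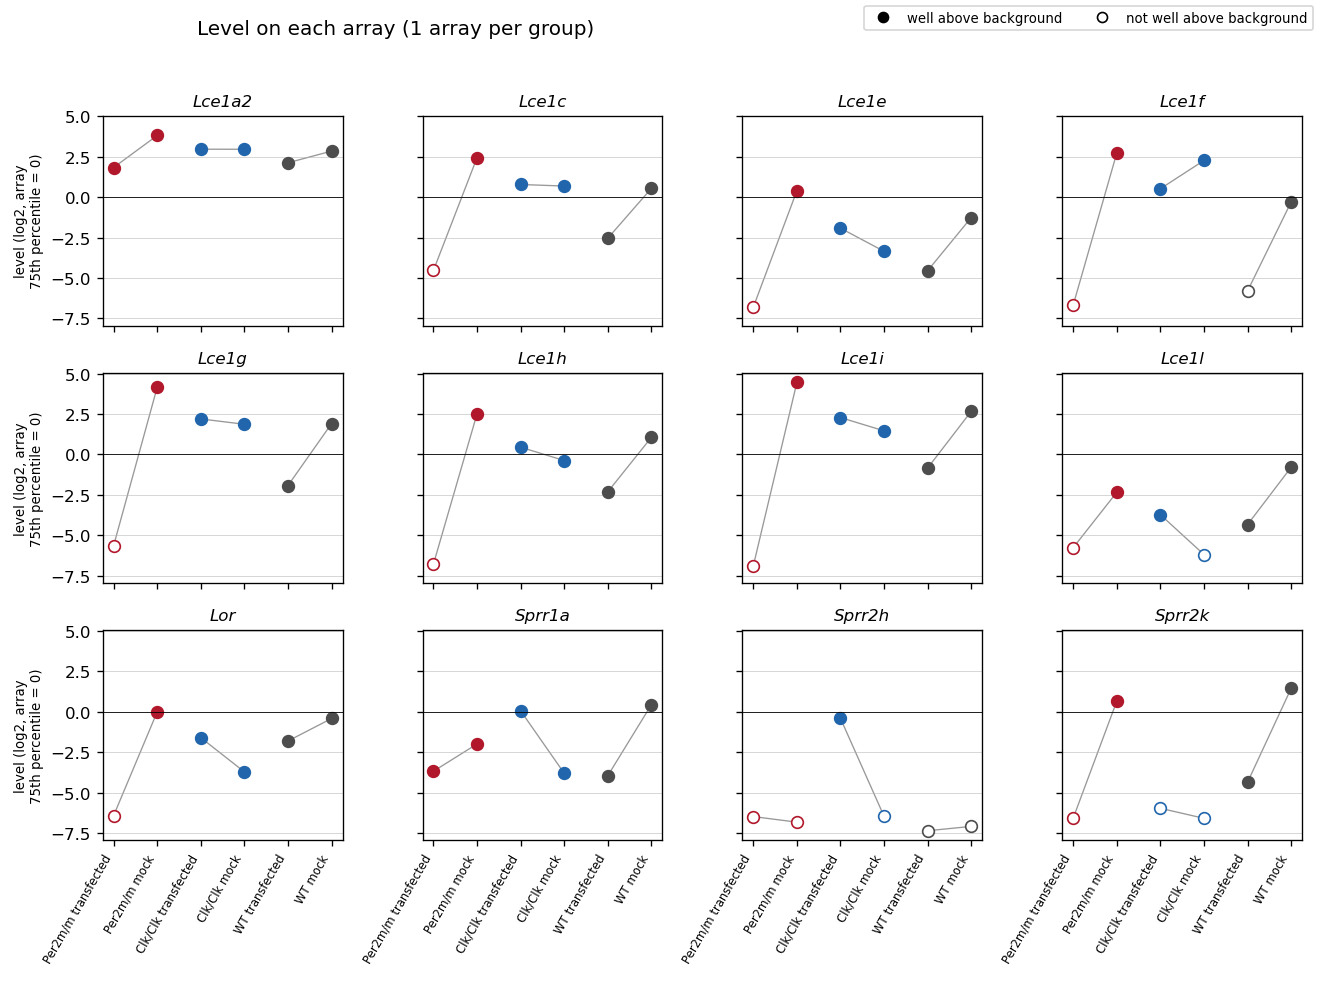
Level (log2, the array's 75th percentile set to 0) of 12 genes on the 6 arrays, 1 point per array, with lines joining transfected to mock cells of a genotype and open points for levels not well above background. Most LCE1 genes sit highest in mock Per2m/m cells and are open points in transfected Per2m/m cells, while the Clk/Clk pair lies closer together.

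Lce1i read −6.89 (dim) in transfected and 4.46 in mock Per2m/m cells, 2.28 and 1.46 in transfected and mock Clk/Clk cells, and −0.84 and 2.67 in transfected and mock WT cells. Transfected cells were at least 529.8-fold lower in the Per2m/m and 11.4-fold lower in the WT genotype, and its response in Clk/Clk cells was 0.82. The second, dimmer Lce1i probe, which resembles that of Lce1h, read −6.43 (dim) and 1.99 in transfected and mock Per2m/m cells, and its responses were 0.88 in Clk/Clk and −3.56 in WT cells. Both probes of this gene were highest in mock Per2m/m cells and dim in transfected Per2m/m cells alone.

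Lce1g stood at −5.63 (dim) in transfected and 4.17 in mock Per2m/m cells, at 2.20 and 1.87 in transfected and mock Clk/Clk cells, and at −1.92 and 1.91 in transfected and mock WT cells. The falls were at least 432-fold in Per2m/m and 14.2-fold in WT cells. Lce1h followed with −6.77 (dim) and 2.52 in transfected and mock Per2m/m cells, 0.45 and −0.38 in transfected and mock Clk/Clk cells, and −2.31 and 1.06 in transfected and mock WT cells. Its falls were at least 138-fold and 10.3-fold in these 2 genotypes, and as with Lce1g and Lce1i the Clk/Clk pair differed by less than 2-fold.

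Lce1c, by the probe shared with Lce1e and Lce1f, read −4.52 (dim) and 2.45 in transfected and mock Per2m/m cells, 0.79 and 0.69 in transfected and mock Clk/Clk cells, and −2.53 and 0.55 in transfected and mock WT cells. Its falls were at least 126-fold in Per2m/m and 8.49-fold in WT cells. The other Lce1c probe was well above background in mock WT cells alone, at −4.90, so the 2 probes of this gene did not give the same reading.

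Lce1e read −6.80 (dim) and 0.40 in transfected and mock Per2m/m cells, −1.92 and −3.35 in transfected and mock Clk/Clk cells, and −4.54 and −1.26 in transfected and mock WT cells. Its falls were at least 31.9-fold in Per2m/m and 9.76-fold in WT cells, but it was 2.70-fold higher in transfected than in mock Clk/Clk cells. Lce1l, with −5.77 (dim) and −2.34 in transfected and mock Per2m/m cells, −3.72 and −6.19 (dim) in transfected and mock Clk/Clk cells, and −4.34 and −0.80 in transfected and mock WT cells, had the same 3 directions. Its falls were at least 4.75-fold in Per2m/m and 11.7-fold in WT cells, and in Clk/Clk cells it was at least 1.87-fold higher, a bound short of 2-fold.

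Lce1f was the LCE1 gene that was lower after transfection in all 3 genotypes. It read −6.68 (dim) and 2.72 in transfected and mock Per2m/m cells, 0.52 and 2.27 in transfected and mock Clk/Clk cells, and −5.80 (dim) and −0.30 in transfected and mock WT cells. The falls were at least 159-fold, 3.36-fold and at least 35.9-fold in that order of genotypes.

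Lce1a2, by a probe shared with Lce1a1, read 1.84 and 3.82 in transfected and mock Per2m/m cells, 2.97 in both Clk/Clk cultures, and 2.13 and 2.85 in transfected and mock WT cells. It was 3.95-fold lower in transfected than in mock Per2m/m cells and changed by less than 2-fold elsewhere. A second Lce1a2 probe was level across the arrays, between −1.28 and −0.78, so the fall was seen by 1 of 2 probes. Lce1m went the other way, with −3.62 and −4.98 (dim) in transfected and mock Per2m/m cells, −4.20 (dim) and −4.02 in transfected and mock Clk/Clk cells, and −4.95 and −5.10 (dim) in transfected and mock WT cells, at least 2.56-fold higher after transfection in Per2m/m cells. Lce1k lay between −4.71 and −4.19 on the 4 Clk/Clk and WT arrays and was dim on both Per2m/m arrays. Of the 9 LCE1 genes with a response of 2-fold or more, 7 had their highest level in mock Per2m/m cells and 7 were dim in transfected Per2m/m cells.

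RefSeq start regions (250 bases before to 50 after the start, GRCm38.p6) were matched by symbol for 39 of the 45 genes. The 150 bases before the start are shown for 3 LCE1 genes that moved together, for Lce1d, dim on every array, and for Lor, all on the minus strand, with motif matches in capitals. The regions are chr3:92752339-92752488 for Lce1g, chr3:92765066-92765215 for Lce1h, chr3:92778900-92779049 for Lce1i, chr3:92687211-92687360 for Lce1d and chr3:92083143-92083292 for Lor (GRCm38.p6).
Lce1g: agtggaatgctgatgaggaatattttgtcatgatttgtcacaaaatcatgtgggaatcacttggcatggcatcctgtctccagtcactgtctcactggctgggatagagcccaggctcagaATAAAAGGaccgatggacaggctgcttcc
Lce1h: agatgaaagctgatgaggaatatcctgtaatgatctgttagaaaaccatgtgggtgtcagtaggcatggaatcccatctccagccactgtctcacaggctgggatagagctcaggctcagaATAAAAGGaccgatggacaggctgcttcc
Lce1i: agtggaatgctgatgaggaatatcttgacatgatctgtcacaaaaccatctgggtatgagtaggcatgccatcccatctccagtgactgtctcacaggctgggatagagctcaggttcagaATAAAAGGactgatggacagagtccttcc
Lce1d: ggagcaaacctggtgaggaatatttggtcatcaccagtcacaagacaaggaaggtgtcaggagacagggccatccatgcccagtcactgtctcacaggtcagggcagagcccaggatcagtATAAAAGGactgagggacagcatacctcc
Lor: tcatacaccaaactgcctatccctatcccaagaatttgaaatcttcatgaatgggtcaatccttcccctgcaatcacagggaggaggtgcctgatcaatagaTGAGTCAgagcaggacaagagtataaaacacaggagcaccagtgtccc
Motifs searched on both strands were CACGTG (the E-box of CLOCK and BMAL1), TGANTCA (AP-1) and ATAAAAGG (a TATA-like element picked after the sequences were seen). ATAAAAGG was in 9 of 12 LCE1 regions, against 1.76% of all 32851 regions in the table, beginning 28 or 29 bases before the start. The E-box was in 0 of 12 LCE1 regions and in 1 of 41 regions of these genes, that of Lce3a, against 7.15% of all regions. TGANTCA was in 9 of 13 SPRR regions and in the one of Lor, against 7.81% of all regions, and in 0 of 12 LCE1 regions. Aligned over 300 bases, the regions of Lce1e, Lce1g, Lce1h and Lce1i were 77.3% to 86.0% identical, and each of them 49.2% to 51.8% identical to that of Lor. Lce1d carried the same ATAAAAGG at the same place as its brighter relatives and was dim on every array.

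**Figure D2:**
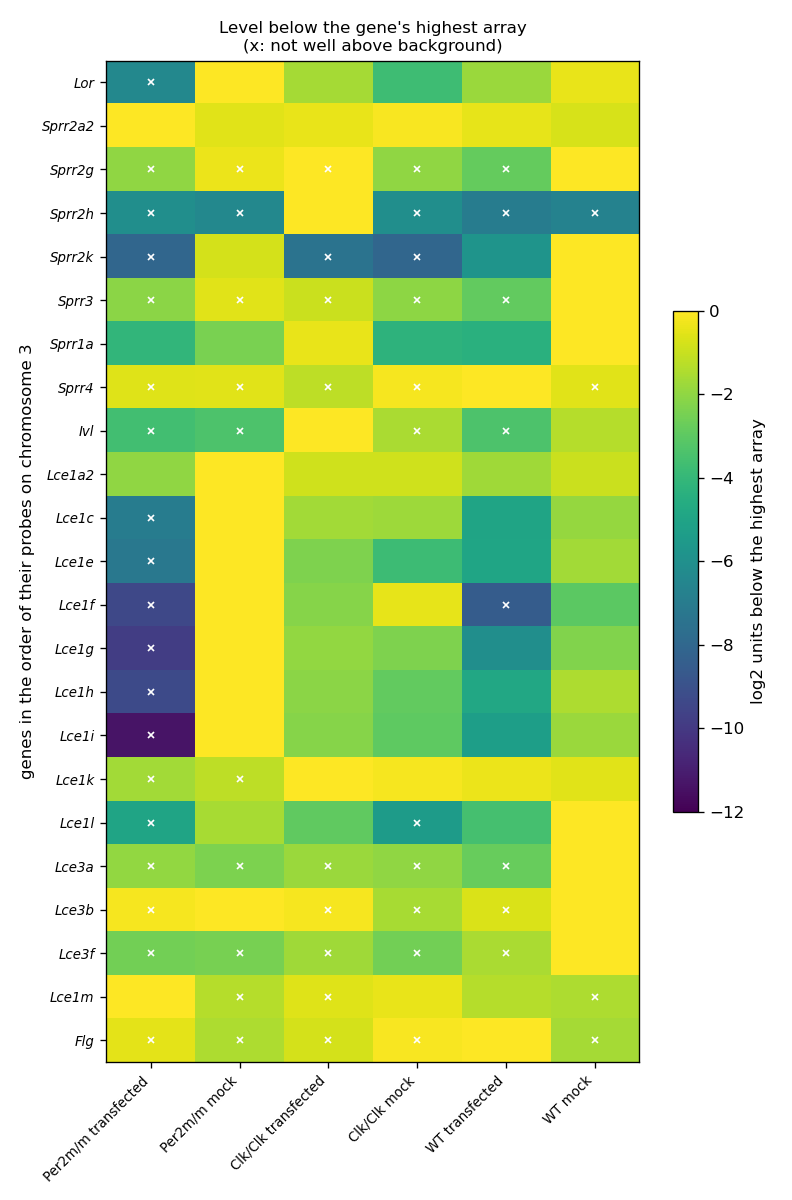
Level of the 23 detected genes on chromosome 3, ordered by probe position (rows), on the 6 arrays (columns), as log2 units below the gene's own highest array, with a cross where the level was not well above background. The block of Lce1c to Lce1i is brightest in mock Per2m/m cells, crossed in transfected Per2m/m cells, and intermediate in both Clk/Clk cultures.

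The LCE3 genes, which in skin are linked to barrier repair, were hardly detected. Lce3a was well above background in mock WT cells alone, at −4.92, and was dim at −6.86 and −7.27 in transfected and mock Per2m/m cells, −6.73 and −6.90 in transfected and mock Clk/Clk cells and −7.72 in transfected WT cells. Lce3f was likewise detected in mock WT cells alone, at −4.08, and was dim at −6.62 and −6.56 in transfected and mock Per2m/m cells, −5.78 and −6.62 in transfected and mock Clk/Clk cells and −5.59 in transfected WT cells. The WT difference was at least 1.46-fold for Lce3a and at least 2.62-fold for Lce3f, both lower after transfection, and the bound reached 2-fold for Lce3f but not for Lce3a. Lce3b was well above background in mock Per2m/m and mock WT cells, at −4.77 and −4.75, and shares sequence with the Lce3c probe.

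Among the SPRR genes, which encode proline-rich cross-bridging proteins of the envelope, Sprr1a and Sprr2k varied most between arrays that detected them. Sprr1a was well above background on all 6 arrays, at −3.68 and −1.99 in transfected and mock Per2m/m cells, 0.05 and −3.81 in transfected and mock Clk/Clk cells, and −3.95 and 0.44 in transfected and mock WT cells. Transfected cells were 3.22-fold lower in Per2m/m and 21.0-fold lower in WT, and 14.5-fold higher in Clk/Clk. Sprr1a is also made outside skin by stressed and injured cells.

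Sprr2k read −6.59 (dim) and 0.65 in transfected and mock Per2m/m cells, −5.97 (dim) and −6.59 (dim) in transfected and mock Clk/Clk cells, and −4.37 and 1.44 in transfected and mock WT cells. It was at least 37.7-fold lower after transfection in Per2m/m cells and 55.9-fold lower in WT cells, and was not detected in either Clk/Clk culture. Sprr2h was detected in transfected Clk/Clk cells alone, at −0.42, with a dim −6.47 in mock Clk/Clk cells, a rise of at least 18.5-fold. It was dim at −6.49 and −6.83 in transfected and mock Per2m/m cells and at −7.36 and −7.09 in transfected and mock WT cells.

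Sprr2g and Sprr3 were detected in mock WT cells alone, at −4.74 and −4.61. Sprr2g was dim at −6.70 and −5.09 in transfected and mock Per2m/m cells, −4.73 and −6.72 in transfected and mock Clk/Clk cells and −7.55 in transfected WT cells. Sprr3 was dim at −6.69 and −5.15 in transfected and mock Per2m/m cells, −5.58 and −6.65 in transfected and mock Clk/Clk cells and −7.51 in transfected WT cells. Both were lower after transfection in WT cells, by at least 1.66-fold and at least 1.81-fold, bounds that do not reach 2-fold. Sprr4 was well above background in transfected WT cells alone, at −4.85.

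Loricrin, the most abundant envelope protein of epidermis, read −6.42 (dim) in transfected Per2m/m cells and 0.00 in mock Per2m/m cells, −1.61 and −3.72 in transfected and mock Clk/Clk cells, and −1.81 and −0.42 in transfected and mock WT cells. It was at least 24.1-fold lower after transfection in Per2m/m cells, 2.62-fold lower in WT cells and 4.34-fold higher in Clk/Clk cells. Involucrin was detected in transfected Clk/Clk cells at −2.91 and in mock WT cells at −4.26, and was dim at −6.56 and −6.25 in transfected and mock Per2m/m cells, −4.43 in mock Clk/Clk cells and −6.24 in transfected WT cells. By this probe it was at least 2.88-fold higher after transfection in Clk/Clk and at least 2.30-fold lower in WT cells. A second involucrin probe gave a response of −1.02 in Clk/Clk cells, well above background on both arrays, so the Clk/Clk direction differed between probes, while both gave a fall in WT cells.

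Filaggrin, which bundles keratin filaments, was detected in transfected WT cells alone, at −5.07. It was dim at −5.58 and −6.55 in transfected and mock Per2m/m cells, −5.82 and −5.18 in transfected and mock Clk/Clk cells and −6.69 in mock WT cells, and in WT cells it was at least 1.14-fold higher after transfection, a bound short of 2-fold.

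The plakins tie the envelope to desmosomes and keratin filaments. Envoplakin read −3.41 and −1.80 in transfected and mock Per2m/m cells, −4.56 (dim) and −3.87 in transfected and mock Clk/Clk cells, and −3.47 and −2.84 in transfected and mock WT cells, and was 3.05-fold lower after transfection in Per2m/m cells. Periplakin, its partner, was detected in mock Clk/Clk cells at −4.40 and transfected WT cells at −3.30, and was dim at −4.90 and −6.02 in transfected and mock Per2m/m cells, −5.57 in transfected Clk/Clk cells and −5.57 in mock WT cells. It was at least 3.87-fold higher after transfection in WT cells and at least 1.05-fold lower in Clk/Clk cells.

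Tgm2, the tissue transglutaminase that fibroblasts and many other cells make, was well above background throughout. Its levels were 3.61 and 5.17 in transfected and mock Per2m/m cells, 4.32 and 3.39 in transfected and mock Clk/Clk cells, and 3.87 and 4.96 in transfected and mock WT cells. Transfected cells were 2.95-fold lower in Per2m/m and 2.13-fold lower in WT. The WT response of −1.09 was −0.77 with arrays scaled by their median and −0.99 with normexp background correction, both under 2-fold. The response in Clk/Clk cells was 0.93, upward and just under 2-fold.

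Tgm1, the membrane-bound enzyme of keratinocytes, was detected in Clk/Clk cells alone, at −3.93 in transfected and −3.02 in mock cells, and was dim between −7.31 and −6.63 on the other arrays. Tgm3, which acts late in cornification, was level at 0.78 and 0.73 in transfected and mock Per2m/m cells, 1.25 and 1.19 in transfected and mock Clk/Clk cells and 0.88 and 0.71 in transfected and mock WT cells. A second Tgm3 probe was well above background in transfected WT cells alone. Tgm5 was detected in transfected Per2m/m cells alone, at −2.21, against a dim −7.01 in mock Per2m/m cells, a rise of at least 6.87-fold. It was dim at −6.45 and −6.63 in transfected and mock Clk/Clk cells and −7.47 and −7.13 in transfected and mock WT cells. Tgm7 was detected in mock Per2m/m cells alone, at −3.38, and was at least 2.32-fold lower in transfected Per2m/m cells, where it was dim at −5.66. It was dim at −4.77 and −5.92 in transfected and mock Clk/Clk cells and −6.85 and −5.70 in transfected and mock WT cells. Tgm4, the prostate enzyme, lay between −4.76 and −3.85 on the 5 arrays that detected it, and Tgm6 was detected in mock WT cells alone, at −4.96.

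**Figure D3:**
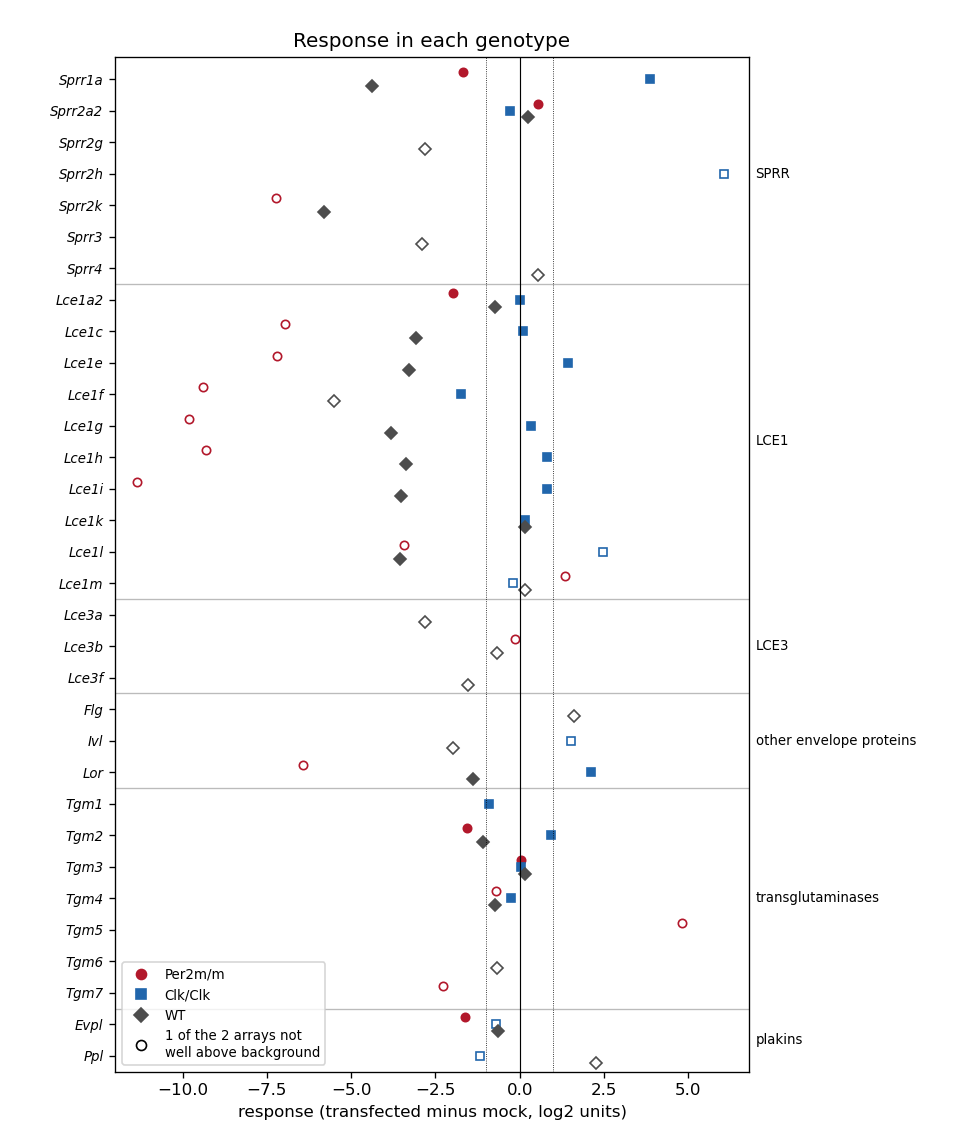
Response (transfected minus mock level, log2) of the 32 detected genes in Per2m/m, Clk/Clk and WT cells, grouped by family, with dotted lines at a 2-fold change and open symbols where 1 of the 2 arrays was not well above background (the distance of an open symbol from 0 is not a measured size). Responses with both arrays dim are not drawn, and the LCE1 genes spread furthest to the left in Per2m/m and then in WT cells.

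Counted together, 14 of the 32 genes were lower and 2 higher after transfection in Per2m/m cells, where 20.5% and 18.7% of all genes tested were. In Clk/Clk cells 2 were lower and 6 higher, against 4.2% and 3.73% of all genes. In WT cells 16 were lower and 2 higher, against 12% and 7.41% of all genes. All 16 Per2m/m calls kept a bound or a measured size of at least 2-fold, while the bound fell short for 2 of 8 calls in Clk/Clk cells (Lce1l and Ppl) and 4 of 18 in WT cells (Lce3a, Sprr2g, Sprr3 and Flg). The share of these genes that was lower in Per2m/m and in WT cells lay above the share of all genes, and the share that was higher in Per2m/m cells lay below it. Lce3a, Lce3f, Sprr2g, Sprr3 and Tgm6 were detected in mock WT cells alone, and Tgm7 in mock Per2m/m cells alone. In the response of that genotype they could only be counted as lower. Sprr4 and Flg in WT and Tgm5 in Per2m/m cells could likewise only be counted as higher. The shares of all genes rest on the same detection rule.

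Median responses of the 32 genes were −1.12 in Per2m/m, 0.26 in Clk/Clk and −1.12 in WT cells, against 0.12, 0.02 and −0.01 over all genes tested. These medians depend on the processing. With dim levels set at their bound they were 0.11 in Per2m/m, 0.15 in Clk/Clk and −0.73 in WT cells, and with normexp background correction 0.011, 0.14 and −0.53 in that order. Of all genes, 6.93% were lower in both Per2m/m and WT cells, as were 11 of the 32: the 7 LCE1 genes, Lor, Sprr1a, Sprr2k and, depending on the scaling, Tgm2. The 7 LCE1 genes are not 7 separate readings. The Lce1c probe is also listed under Lce1e and Lce1f, and the other Lce1c probe was dim on both Per2m/m arrays. The Lce1h probe resembles the dimmer Lce1i probe. In Clk/Clk cells 4 of the 11 were higher (Lce1e, Lce1l, Lor and Sprr1a) and 1 was lower (Lce1f).

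**Figure D4:**
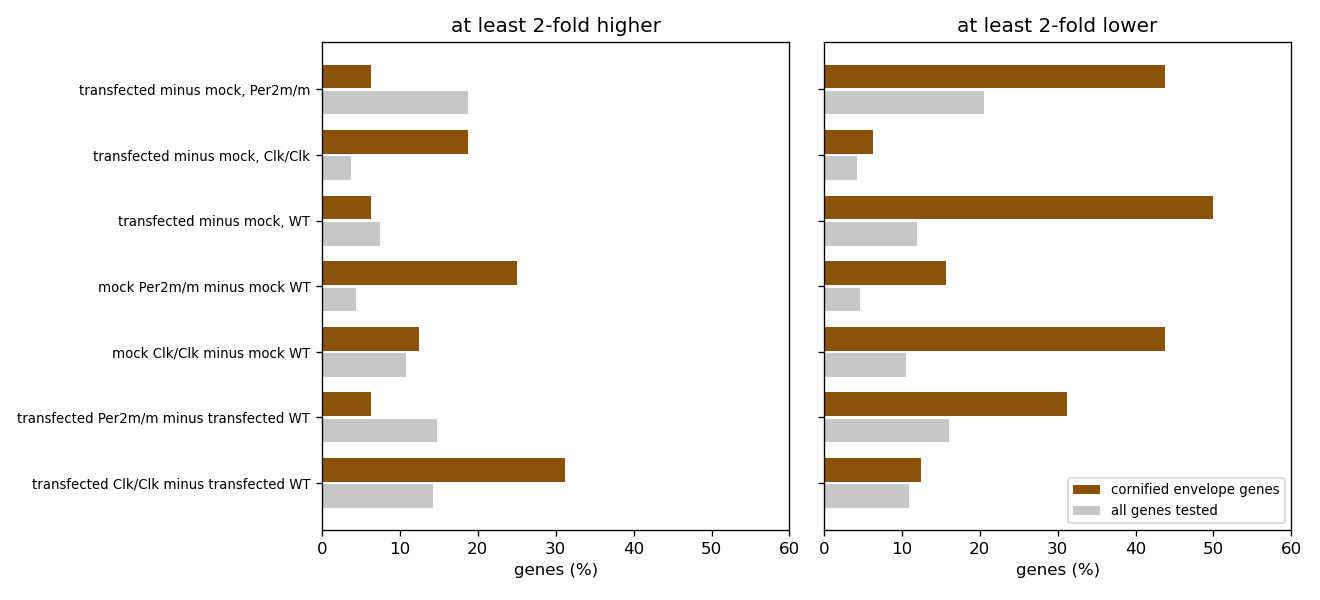
Share of the 32 detected cornified envelope genes (brown) and of all genes tested (grey) that were at least 2-fold higher (left) or lower (right), in percent, for the responses in 3 genotypes and 4 comparisons of a mutant with WT cells. The brown bars stand furthest above the grey for lower genes in the WT response and in mock Clk/Clk cells. Both use the mock WT array, on which alone Lce3a, Lce3f, Sprr2g and Sprr3 were detected. The bars include calls whose bound fell short of 2-fold or gave no fold.

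Mock cultures of the genotypes also differed in these genes. In mock Per2m/m cells 8 of the 32 were higher and 5 lower than in mock WT cells, against 4.35% and 4.64% of all genes. The higher ones included 6 LCE1 genes, from 2.75-fold for Lce1h to 8.13-fold for Lce1f, with Evpl at 2.05-fold and Tgm7 at least 3.68-fold. Sprr1a was 5.40-fold and Lce1l 2.92-fold lower, so the LCE1 genes did not all lie on one side. In mock Clk/Clk cells 4 were higher and 14 lower than in mock WT cells, against 10.8% and 10.5% of all genes. The lower ones were led by Sprr2k at least 66.7-fold, Sprr1a 19.0-fold, Lce1l at least 14.2-fold and Lor 9.88-fold, while Lce1f was 5.95-fold and Tgm1 at least 4.72-fold higher. The bound fell short of 2-fold, or gave no fold, for 3 of 13 calls in the Per2m/m comparison and 6 of 18 in the Clk/Clk comparison. Both comparisons use the same mock WT array. Lce3a, Lce3f, Sprr2g, Sprr3 and Tgm6 were detected on that array alone, so here they could only be counted as lower.

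Between transfected cultures, 7 LCE1 genes were lower in Per2m/m and 6 were higher in Clk/Clk than in WT cells. In transfected Per2m/m cells 2 of the 32 were higher and 10 lower than in transfected WT cells, against 14.7% and 16.1% of all genes, with Lce1i at least 13.5-fold, Lor at least 6.88-fold and Lce1g at least 6.37-fold lower and Tgm5 at least 9.58-fold higher. In transfected Clk/Clk cells 10 were higher and 4 lower than in transfected WT cells, against 14.3% and 10.9% of all genes. Lce1f was at least 63.6-fold higher there, Sprr2h at least 33.2-fold, Lce1g 17.4-fold, Sprr1a 16.0-fold, Lce1c 9.99-fold, Lce1i 8.68-fold, Lce1h 6.75-fold and Lce1e 6.17-fold. The bound fell short of 2-fold, or gave no fold, for 4 of 12 calls in the Per2m/m comparison, among them Lce1e, Lce1k and Lce1l, and for 3 of 14 in the Clk/Clk comparison. These 2 comparisons share the transfected WT array, and each mutant array also serves in that mutant's own response, so the comparisons are not independent of each other.

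An additive limma model of genotype and transfection, which leaves 2 residual degrees of freedom, made 0 calls at an adjusted p under 0.05 among all 17552 genes for any coefficient. Without repeats, its residual is how far the responses differ between genotypes. Such differences, as in the LCE1 genes, therefore act as its error and were not tested. At an unadjusted p under 0.05 the transfection coefficient took in 818 genes (4.66%), 2 of them among the 32, Lce1f and Evpl. The transfection coefficient of Lce1f was −5.55 ± 1.61 (SE, limma, adjusted p = 0.695) and that of Evpl −0.98 ± 0.33 (SE, limma, adjusted p = 0.695). For Lce1i, whose responses ran in opposite directions, it was −4.68 ± 2.58 (SE, limma, adjusted p = 0.695). The Per2m/m and Clk/Clk coefficients gave 399 genes (2.27%) and 1688 genes (9.62%) at an unadjusted p under 0.05, each with 1 of the 32, and the lowest adjusted p among the 32 was 0.934 and 0.278 (limma).

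Genes that are not members but lie among them on chromosome 3 were read as well, 11 of them named, 8 detected. Crct1, a cysteine-rich protein gene of the same complex, read −6.66 (dim) and 2.64 in transfected and mock Per2m/m cells, −0.88 and −2.15 in transfected and mock Clk/Clk cells, and −0.57 and 3.29 in transfected and mock WT cells. After transfection it was at least 150.2-fold lower in the Per2m/m genotype, with responses of −3.86 in WT and 1.27 in Clk/Clk cells, and a second Crct1 probe was dim on every array. Kprp and 2310050C09Rik were also detected in mock and dim in transfected Per2m/m cells, lower by at least 1.32-fold and at least 5.98-fold. Other neighbours had other patterns, among them 2210017I01Rik, between −1.75 and −1.56 on all arrays, and Prr9, with responses of −0.29 in Per2m/m, 0.68 in Clk/Clk and −1.48 in WT cells. The files also name Lce3e under an older symbol that the choice by name does not take in, and it was dim on every array.

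Other genes of cornification were taken from lists and moved in both directions. Of 20 further envelope precursors 13 were detected, with 5 higher and 5 lower in Per2m/m, 1 and 0 in Clk/Clk, and 3 and 2 in WT cells. The shares of all genes to set beside this and the next counts are those above, 18.7% higher and 20.5% lower in Per2m/m, 3.73% and 4.2% in Clk/Clk, and 7.41% and 12% in WT cells. All these list counts go by level difference. In Per2m/m cells the bound fell short of 2-fold for Crnn, Krt6b and Hopx. It did so for Hopx and Cebpa in Clk/Clk cells and for St14 and Ehf in WT cells. Corneodesmosin (Cdsn), an adhesive protein of the outer epidermis, responded by 8.43 (log2) in Per2m/m cells, and desmoplakin (Dsp), which anchors keratin to desmosomes, was at least 2.94-fold lower there. In WT cells Dsp went the other way, with a response of 1.72. The median response of the list was 0.36 in Per2m/m, 0.11 in Clk/Clk and −0.19 in WT cells. Of 10 keratins 6 were detected, with 3 higher and 1 lower in Per2m/m cells and 0 in either direction in Clk/Clk and WT cells. The basal keratin Krt14 had a Per2m/m response of 6.70, while the suprabasal Krt10 was at least 16.2-fold lower.

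Of 13 desmosome and tight junction genes 7 were detected, with 1 higher and 3 lower in Per2m/m, 1 and 0 in Clk/Clk, and 2 and 1 in WT cells. Perp, a desmosomal protein and p53 target, was at least 239.7-fold lower after transfection in Per2m/m cells, and E-cadherin (Cdh1) at least 3.24-fold higher. In the other genotypes Perp was higher after transfection, at least 2.09-fold in Clk/Clk and with a response of 2.55 in WT cells. Of 18 lipid and protease genes 11 were detected, with 1 higher and 4 lower in Per2m/m, 2 and 1 in Clk/Clk, and 1 and 2 in WT cells. The kallikrein protease Klk8 had responses of −5.69 in Per2m/m, 2.62 in Clk/Clk and −3.70 in WT cells, and the water channel Aqp3 rose at least 28.2-fold in the Per2m/m genotype. Of 23 regulators of keratinocyte differentiation 20 were detected, with 7 higher and 6 lower in Per2m/m, 3 and 1 in Clk/Clk, and 2 and 4 in WT cells. Klf4, a factor of the skin barrier, was detected on both Per2m/m arrays with a response of 3.40. Grhl2, an epithelial transcription factor, had the largest upward difference only against a dim mock level, a bound of at least 3.25-fold, and Cebpa, which promotes differentiation, was at least 31.3-fold lower there. The medians of these 4 lists in Per2m/m cells were 0.44 for keratins, −0.85 for junction genes, −0.96 for lipid and protease genes and 0.16 for regulators.

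Markers of other cells moved on some of the same arrays. Macrophage markers were well above background for 6 of 10 genes in transfected and 10 in mock Per2m/m cells, 6 and 7 in transfected and mock Clk/Clk cells, and 7 and 10 in transfected and mock WT cells, with a summed level of 4.07 and 5.66, 5.82 and 5.93, and 4.57 and 5.50 in the same order. That sum is carried by Itgam, at 5.65 and 5.77 in transfected and mock Clk/Clk cells, while Tyrobp and Lyz2 were dim on both Clk/Clk arrays and well above background in mock Per2m/m and mock WT cells. A summed level is the log2 of the added unlogged levels of a list's detected genes. Its parts depend on the response of each probe, so they do not rank genes by amount. After transfection 8 of the 10 were lower and 0 higher in the Per2m/m genotype, 1 lower and 0 higher in Clk/Clk, and 7 lower and 1 higher in WT. Suprabasal keratinocyte markers had a summed level of −2.00 and 0.28 in transfected and mock Per2m/m cells, −0.24 and 0.02 in transfected and mock Clk/Clk cells, and 0.49 and 0.06 in transfected and mock WT cells, over the 3 of 8 that were detected, with 2 well above background in transfected Per2m/m cells and 3 on each other array. Smooth muscle markers summed to 3.73 and 11.14 in transfected and mock Per2m/m cells and to between 10.52 and 11.02 on the other arrays, with 5 or 6 of 6 well above background on each array. Simple epithelium markers summed to −0.65 and 2.48 in transfected and mock Per2m/m cells, −0.49 and −0.16 in transfected and mock Clk/Clk cells, and −0.57 and 1.18 in transfected and mock WT cells, with 4 to 6 of 10 well above background and Epcam dim throughout. In Per2m/m cells 2 of these were higher after transfection, Krt8 at least 5.24-fold and Cdh1 at least 3.24-fold, and 3 were lower, with Krt19 at least 87.9-fold. Basal keratinocyte markers summed to between 4.18 and 5.43, with 6 or 7 of 8 well above background. Itga6 was the largest part of that sum on each array. Trp63 made the next largest part, at 2.57 to 3.03 and well above background on every array. In transfected WT cells its 2.84 stood close to the 2.96 of Itga6, a likeness of signal and not of amount. In Per2m/m cells 3 of 7 were higher, Krt14 by 6.70 and Itgb4 by 1.84 (log2) and Col17a1 at least 6.17-fold, and 1 was lower. The part of these cells, and of the shift in fibroblast markers, in the LCE1 result was not tested, and fewer cells of a type and less RNA per cell cannot be told apart here.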

How the data were processed

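Total RNA of 6 MEF cultures was measured on 6 Cy3 arrays, 1 per genotype and transfection. The deposited scanner files hold linear intensity values for each spot, of which the processed signal was used. Per the file headers it came from Feature Extraction 10.7.1.1 on build mm9, whereas the submitters' processing notes name 9.5.1.1. A deposited table by the authors, covering all samples, is linear intensity too. Each of its 6 columns has a median of 23.8 and follows its own array (r of at least 0.998), so its scale is that of the arrays and not centred by gene, and the sources used here do not name its software.

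Outlier spots (85 to 125 of 59305 per array) were left out, spots of a probe averaged, log2 taken and the array's log2 75th percentile subtracted. No spot was saturated. The outliers included 4 spots of Lce1b in mock Per2m/m cells, where its other spots gave the value. Probes well above background on at least 1 array were kept, and a gene was represented by the kept probe with the highest mean level. For a bound, a dim level was raised to that of the dimmest probe well above background on its array, where it lay below that. Probes were named through RefSeq accession, symbol or synonym (GRCm38.p6, names only), and the symbols of all 45 genes in the files were those of RefSeq.

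Within a genotype a response has no test. An additive model (genotype plus transfection) used limma 3.58.1 (R 4.3.3) with Benjamini-Hochberg adjustment, two-sided, and was tested on simulated data. Its residual is how far the responses differ between genotypes and not a spread between repeats, and its p-values rest on that residual. The labels do not say whether the 6 samples were separate cultures of separate embryos. A few genes with an outlier on an array were fitted without it. The rest was done in Python 3.11.15 (numpy 2.4.6, pandas 2.3.3, matplotlib 3.10.9). Promoter regions were searched by exact motif match and aligned globally (match 1, mismatch −1, gap opening −3, gap extension −0.5). Precision is limited by the number of arrays.

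Every member is named, those detected are described, levels on all arrays are given for members with a response of 2-fold or more or detected on all 6 arrays, and the rest are given by range. Lists of other genes are given by counts, with the largest response in each direction, by level difference, in the genotype that moved most. The members and lists were chosen with earlier results of these data known.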

Additional observations from a re-analysis of the deposited data

Results flagged for a closer look

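Some genes had responses of opposite direction in 2 genotypes, each counted as 2-fold or more by level difference, though not every bound reached 2-fold. With 1 array per group the difference was not tested, and the sizes below are differences of responses in log2 units that include dim levels. For Sprr1a the Clk/Clk response exceeded the Per2m/m response by 5.55 and the WT response by 8.25. For Lor it did so by 8.54 and 3.51, for Lce1e by 8.64 and 4.72, and for Lce1l by 5.89 and 6.01. The Clk/Clk rise of Lce1l has a bound of only 1.87-fold. The Clk/Clk response of Ivl exceeded that in WT cells by 3.51, though a second Ivl probe fell in both genotypes. The Ppl response in WT cells exceeded that in Clk/Clk cells by 3.44, with a Clk/Clk fall whose bound is only 1.05-fold.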

How the results depend on the processing

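No paired analysis was possible because each group has 1 array, so no replicate block can be added to the limma model, which already holds genotype as a term and so compares transfected with mock within genotypes. Of 42 responses of 2-fold or more, 1 dropped below 2-fold with scaling by the median, 2 with the mean of a gene's probes and 0 with quantile normalization or the authors' table, none with a change of direction. Scaling by the median moved the median response of all genes by 0.28 in Per2m/m and 0.32 in WT cells, and took Tgm2 in WT cells to −0.77. Normexp background correction with an offset of 50 took 16 below 2-fold, among them Flg in WT cells, which turned to −0.062; its offset pulls dim levels together by construction.

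Median responses moved with the setting. In Per2m/m cells the median was −0.84 with median scaling, −0.92 with quantile normalization and with the authors' table, −0.82 with the mean of probes, −1.56 over genes detected on all 6 arrays and 0.011 with normexp. By alternatives chosen after seeing the data, it was 0.11 with dim levels at their bound and −0.70 without Lce1c, Lce1a2 and Sprr2a2, whose probes are shared. Lce1h and Lce3b, whose probes resemble those of relatives, were kept in that last setting. In Clk/Clk cells the median was 0.14 with normexp, 0.054 over genes on all 6 arrays, 0.15 at the bound and 0.62 without Lce1c, Lce1a2 and Sprr2a2. In WT cells it was −0.80, −1.03, −1.03, −0.53, −0.72 and −0.73 with median scaling, quantile normalization, the authors' table, normexp, genes on all 6 arrays and the bound.

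With normexp the counts were 1 higher and 11 lower in Per2m/m, 3 and 1 in Clk/Clk, and 0 and 10 in WT cells. Over genes on all 6 arrays they were 0 higher and 3 lower in Per2m/m, 1 and 0 in Clk/Clk, and 0 and 2 in WT cells, because 5 genes remain. At 4-fold, 1 was higher and 10 lower in Per2m/m, 4 and 0 in Clk/Clk, and 1 and 12 in WT cells. At the bound, 2 were higher and 14 lower in Per2m/m, 5 and 1 in Clk/Clk, and 1 and 13 in WT cells. Without the transfected Per2m/m array limma again made 0 calls. Signal near background limits what can be said of most SPRR and LCE3 genes.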
